A study of Mus musculus with 18 samples.

Results

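The 36 genes described here encode aminoacyl-tRNA synthetases, the enzymes that join each amino acid to its transfer RNA. They were taken by name, 20 for the enzymes of the cytosol and 16 for those of mitochondria (symbols ending in 2), out of 21774 protein-coding genes of the mouse nuclear genome. Open chromatin was mapped by ATAC-seq, a method that inserts sequencing adapters into accessible DNA with a transposase. The cells were cortical neurons cultured from the brains of CD1 mouse embryos (E14.5-15). Every culture was given cytosine arabinoside, which kills dividing cells, and a pair of lentiviral short hairpin RNAs (shRNAs) at day 6 of culture, with harvest at day 11.

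Of the 18 samples, 5 had a control and a scrambled shRNA, 3 a control and the Atf4 shRNA, 5 the Opa1 and a scrambled shRNA, and 5 the Opa1 and Atf4 shRNAs. Opa1 encodes a GTPase needed for fusion of the inner mitochondrial membrane. The data used here are 1 list of 211682 consensus peaks, which holds no values by sample or group. So no value below belongs to a knockdown, none has a replicate error, and the depth is unknown. The list does not name the samples behind it. Of 11 markers of cortical neurons, 10 had a peak within 1000 bp of a gene end, as did 3 of 5 astrocyte, 2 of 5 microglia, 4 of 6 oligodendrocyte lineage and 3 of 4 vascular markers. Over all protein-coding genes the share was 70.4%, so the counts for astrocyte, oligodendrocyte lineage and vascular markers lay near that of any genes. A peak does not give the share of cells that carry it, and the part of other cell types in the peaks below was not tested.

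Uncharged transfer RNA activates the kinase GCN2, which phosphorylates the initiation factor eIF2. Translation of most messages then slows, while that of Atf4, a bZIP transcription factor, rises. ATF4 pairs with C/EBP family proteins on a composite DNA element made of a C/EBP and an ATF site, and genes of many cytosolic synthetases are among its known targets. Mitochondrial synthetases are encoded in the nucleus by separate genes and imported. Gars and Kars are exceptions, since each makes both the cytosolic and the mitochondrial enzyme.

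The composite element was looked for in the RefSeq promoter windows (GRCm38.p6), which run from 250 bases before to 50 bases after each listed transcription start. Of the 36 genes, 27 have a window (13 cytosolic, 14 mitochondrial). Those without are Cars, Hars, Lars, Nars, Rars, Vars, Wars, Hars2 and Pars2. The core TGATGNAA, read on both strands, was found in 5 of 13 cytosolic windows and in 0 of 14 mitochondrial ones, against 4.13% of the windows of 17492 protein-coding genes. At that share, 0 of 14 is near the background. The 5 were Aars, Gars, Iars, Tars and Yars. They are shown from 130 bases before to 20 bases after the first transcribed base, with the core or its reverse complement in capitals, because they hold all the matches counted among the members.
Aars: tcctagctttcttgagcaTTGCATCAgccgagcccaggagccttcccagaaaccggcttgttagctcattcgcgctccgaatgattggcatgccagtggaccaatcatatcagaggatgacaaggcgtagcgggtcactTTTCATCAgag
Gars: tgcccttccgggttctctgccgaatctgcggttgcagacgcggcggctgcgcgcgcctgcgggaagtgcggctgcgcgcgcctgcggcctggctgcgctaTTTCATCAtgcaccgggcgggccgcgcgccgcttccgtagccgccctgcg
Iars: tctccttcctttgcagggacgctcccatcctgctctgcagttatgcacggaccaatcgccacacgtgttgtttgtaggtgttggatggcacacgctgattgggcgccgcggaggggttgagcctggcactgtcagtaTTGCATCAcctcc
Tars: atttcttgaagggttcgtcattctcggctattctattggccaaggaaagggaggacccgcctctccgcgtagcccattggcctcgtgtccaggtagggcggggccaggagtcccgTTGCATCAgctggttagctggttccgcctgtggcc
Yars: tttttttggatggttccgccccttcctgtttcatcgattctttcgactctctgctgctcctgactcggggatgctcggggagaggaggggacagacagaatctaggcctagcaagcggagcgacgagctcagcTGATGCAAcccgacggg
The windows shown lie at chr8:111033712-111033861 (plus strand) for Aars, chr6:55037871-55038020 (plus) for Gars, chr13:49682000-49682149 (plus) for Iars, chr15:11399639-11399788 (minus) for Tars and chr4:129189773-129189922 (plus) for Yars.

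The same stretch of Iars2 and Yars2, which encode the mitochondrial enzymes for isoleucine and tyrosine, holds no core and therefore no capitals.
Iars2: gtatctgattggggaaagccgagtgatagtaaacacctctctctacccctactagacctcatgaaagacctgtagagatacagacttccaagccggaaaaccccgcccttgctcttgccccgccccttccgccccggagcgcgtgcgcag
Yars2: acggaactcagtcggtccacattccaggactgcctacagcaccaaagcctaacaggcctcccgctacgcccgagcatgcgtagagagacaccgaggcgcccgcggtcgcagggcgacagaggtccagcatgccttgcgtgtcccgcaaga
These lie at chr1:185329382-185329531 (minus) and chr16:16302835-16302984 (plus).

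Aars, for alanine, had 2 cores, at bases -112 to -105 and 10 to 17, counted from 1 at the first transcribed base with no base 0. Those of the other genes lay at -30 to -23 in Gars (glycine), -15 to -8 in Tars (threonine), 8 to 15 in Iars (isoleucine) and 4 to 11 in Yars (tyrosine). Thus the cores of Iars and Yars and 1 of those of Aars lie in transcribed sequence. In all 5 genes except Yars the match was on the strand opposite to transcription. With only the 250 bases upstream, 3 of 13 cytosolic windows had the core (Aars, Gars and Tars), against 3.64% of all. The full octamer TGATGCAA, with C at the open position, stood in 4 of 13 cytosolic windows (Gars lacked it) and 0 of 14 mitochondrial ones, against 1.01%. Here too the mitochondrial count is near the background.

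Every one of these matches lay inside the consensus peak over its gene's start. The nearer edge of the peak was 145 and 266 bp away for the matches of Aars, 364 bp for Gars, 400 bp for Tars, 435 bp for Iars and 504 bp for Yars. Among all 10937 genes with a peak over a listed start, 2.63% had the core. Among 12973 genes with a window of 45 to 72% G and C, a range that holds all 27 members' windows, 3.16% had it. A match is a description of the letters and does not show that ATF4 was bound.

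Of the 20 cytosolic genes, 13 are often named as ATF4 targets (Aars, Cars, Eprs, Gars, Iars, Lars, Mars1, Nars, Sars, Tars, Vars, Wars and Yars). The core was in 5 of the 8 of these that have a window, and in 0 of the 5 other cytosolic genes with one (Dars, Farsa, Farsb, Kars and Qars). The list is general knowledge from work that itself used ATF4 binding and such elements, so it is not independent of the motif. Eprs, Mars1 and Sars are on it and had no match in these windows.

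Other motifs were read in the same windows on both strands. The nuclear respiratory factor 1 (NRF1) motif was in Farsb, Kars and Tars (3 of 13) and in Iars2 and Mars2 (2 of 14), against 7.17% of all windows. The E-box CACGTG was in Aars, Farsb, Iars and Tars (4 of 13) and in Ears2 (1 of 14), against 8.91%. The letters CCAAT, which the factor NF-Y reads, were in 7 of 13 cytosolic and 6 of 14 mitochondrial windows, against 42.3%. The cAMP response element TGACGTCA was in 0 of 27, against 2.54%. None of the matches to these motifs in Aars, Gars, Iars, Tars or Yars shared a base with the composite core. The medians of G and C content were 56.0% in cytosolic and 58.2% in mitochondrial windows, against 56.3% in all.

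**Figure D1:**
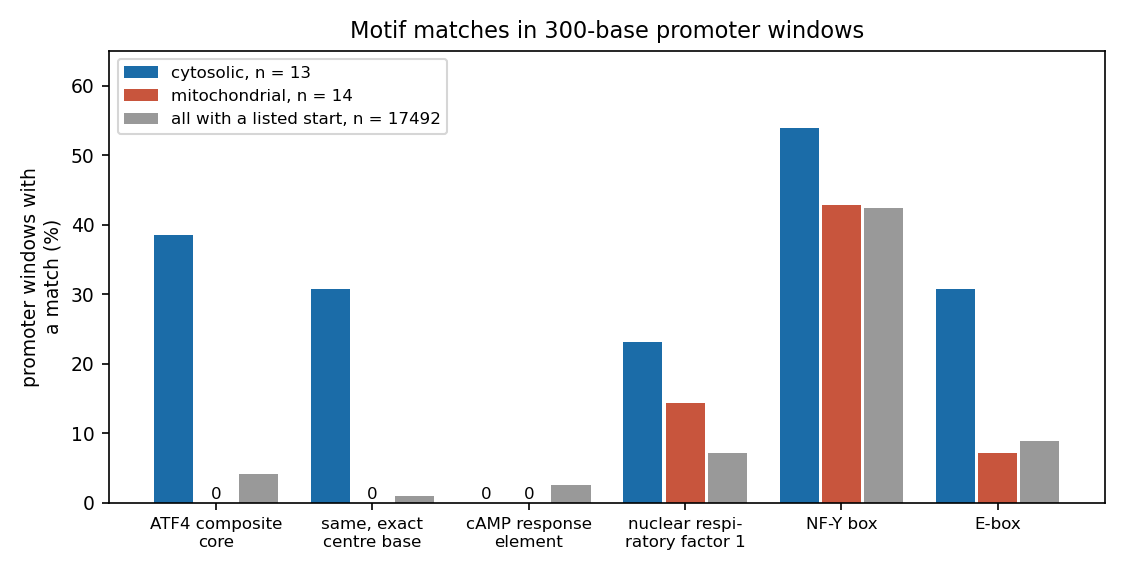
The vertical axis gives the percent of 300-base promoter windows with at least 1 match on either strand, in bars for 13 cytosolic genes, 14 mitochondrial genes and all 17492 protein-coding genes with a window. The first group of bars shows the composite core in 5 cytosolic windows and in no mitochondrial one.

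All 27 genes with a listed start had a peak over that very base, 13 of 13 cytosolic and 14 of 14 mitochondrial, against 62.5% of 17492 genes. Among the 12973 genes with a window of 45 to 72% G and C, the share was 71.2%. The start peaks of the 2 classes had nearly the same width, with a median of 1129 bp (range 824 to 1631) for cytosolic genes and 1120 bp (717 to 1578) for mitochondrial ones. Over all genes with such a peak the median was 1169 bp. They reached a median of 428 bp upstream and 753 bp downstream of the start in cytosolic genes, and 452 and 690 bp in mitochondrial genes, against 477 and 632.5 bp over all genes. The peak reached farther downstream than upstream in 19 of 27 members, against 64.7% of genes.

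**Figure D2:**
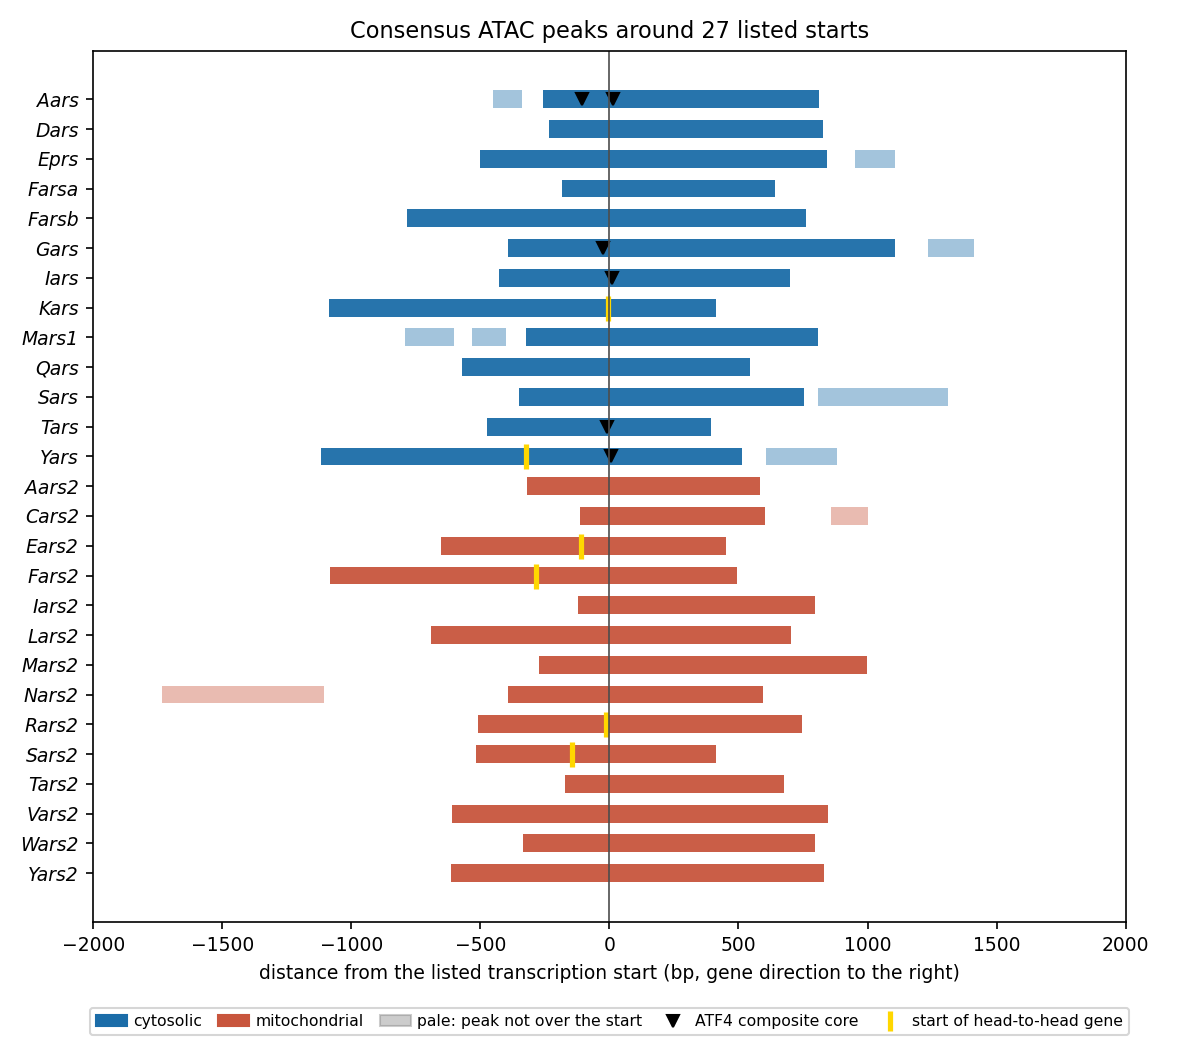
Each row is 1 of the 27 genes and each bar a consensus peak, placed by distance in bp from the listed start with transcription running to the right. Dark bars cover the start, triangles mark the composite core (5 cytosolic genes, 0 mitochondrial), and ticks mark the starts of 6 head-to-head neighbours.

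By either outermost end of the gene, 35 of the 36 genes had a peak within 1000 bp, against 70.4% of all protein-coding genes. These were 19 of 20 cytosolic and 16 of 16 mitochondrial genes. The exception was Eprs, which joins both glutamate and proline to their transfer RNAs. Its listed start lies 1627 bp inside the outermost annotated end and carried a peak of 1345 bp (chr1:185362543-185363887). Of the 5307 genes that have a listed start but no end peak, 450 had a peak over that start.

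The start also lay over 1000 bp inside the outermost end in Aars (6064 bp), Aars2 (3317 bp) and Tars2 (1388 bp). With Eprs these are 4 of the 27 members with a listed start, against 9.95% of all genes with one. For Aars2 the only end peak was 280 bp wide (chr17:45503568-45503847), while the peak over its start measured 904 bp (chr17:45506514-45507417). For Tars2 the only end peak, of 399 bp, lay beyond the finish of the gene, and the peak over its start measured 847 bp (chr3:95754302-95755148). These 2 genes had the narrowest end peaks of the mitochondrial class, and both had start peaks within the range of the rest.

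The widest end peak per gene had a median of 1317 bp in the 19 cytosolic genes and 1120 bp in the 16 mitochondrial genes, against 1133 bp in all 15320 genes with one. The quartiles were 944.5 and 1497.5 bp in the first class and 917 and 1410 bp in the second, so the classes overlapped widely. The gap between the medians depended on the setting. They were 1135 and 1105 bp with a window of 500 bp, and 1129 and 1105 bp with the peak midpoint in the window. Without peaks near a neighbouring gene's end they were 1123.5 and 990 bp. A window of 2500 bp gave 1321 and 1120 bp, and peaks of at least 500 bp gave 1317 and 1196.5 bp. Without Gars and Kars the cytosolic median was 1129 bp. At least 1000 bp was reached by 13 of 20 cytosolic and 9 of 16 mitochondrial genes, against 44.5% of all genes. These shares include genes without any end peak. Among genes with one, 13 of 19 cytosolic, 9 of 16 mitochondrial and 9681 of all 15320 genes reached it. The widest in the cytosolic class were at Sars for serine (2066 bp), Yars (1631 bp, chr4:129188787-129190417), Farsb (1544 bp, chr1:78488137-78489680), Gars (1502 bp, chr6:55037607-55039108) and Kars (1502 bp, chr8:112010941-112012442). Farsb encodes the beta subunit of the phenylalanine enzyme. The narrowest were at Rars for arginine (814 bp, chr11:35834001-35834814) and Farsa, the alpha subunit of the phenylalanine enzyme (824 bp, chr8:84856804-84857627).

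In the mitochondrial class the widest end peaks were at Fars2 for phenylalanine (1578 bp, chr13:36116560-36118137), Vars2 for valine (1457 bp, chr17:35666747-35668203), Hars2 for histidine (1453 bp), Yars2 (1445 bp, chr16:16302352-16303796) and Lars2 for leucine (1398 bp, chr9:123366235-123367632). After Aars2 and Tars2 the narrowest was at Cars2 for cysteine (717 bp). The other end peaks of this class spanned 909 to 1273 bp. They were at Pars2 (proline), Iars2, Sars2, Nars2 (asparagine), Ears2 (glutamate), Wars2 (tryptophan), Rars2 and Mars2 (methionine).

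**Figure D3:**
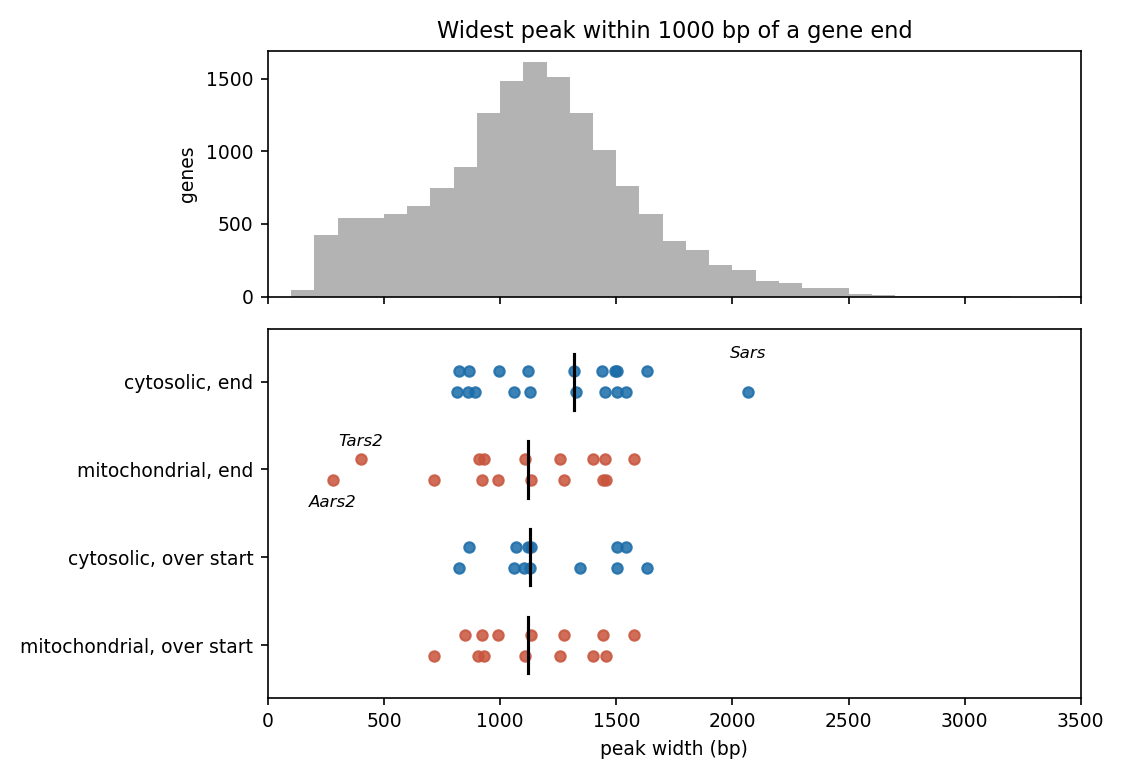
The upper panel counts genes (vertical axis) by the width in bp of their widest peak within 1000 bp of an end, for 15320 protein-coding genes. The lower panel gives each synthetase gene as a point and the class median as a line, for end peaks (medians 1317 and 1120 bp) and for peaks over the listed start (1129 and 1120 bp).

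Among cytosolic enzymes, 8 (Eprs, Iars, Lars, Mars1, Qars, Rars, Kars and Dars) sit in the multisynthetase complex, in which they are held together by scaffold proteins. Their end peaks, present in 7, had a median of 1118 bp, against 1446 bp in the 12 other cytosolic genes. Over the listed start the medians were 1132 bp in 6 complex genes and 1103 bp in 7 others. Single start peaks in the complex measured 1060 bp at Dars (aspartate), 1118 bp at Qars (glutamine), 1129 bp at Iars, 1135 bp at Mars1 (methionine), 1345 bp at Eprs and 1502 bp at Kars (lysine). Lars (leucine) had an end peak of 860 bp.

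A peak at both outermost ends was found in 11 of 20 cytosolic genes and in 4 of 16 mitochondrial genes, against 20.6% of all genes. Where the start is listed, the other end is the finish of the gene, and 7 of 13 cytosolic and 5 of 14 mitochondrial genes had a peak within 1000 bp of it, against 25.0%. The same 7 and 5 were counted when a peak that also lay at the start was not allowed, against 23.1%. Many of these peaks lay at a neighbouring gene. Counting only finish peaks farther than 1000 bp from every end of other coding genes, 2 of 13 cytosolic and 3 of 14 mitochondrial genes had one, against 17.4%. With peaks of at least 500 bp alone, 5 of 13 and 1 of 14 had one, against 14.6% of all genes.

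The widest finish peak was at Sars (chr3:108422807-108424872, 2066 bp) and ran outward, from -8 to 2057 bp relative to the last base of the gene. No end of another coding gene lay within 1000 bp of it. The nearest coding gene beyond it is Celsr2, a cadherin of the flamingo type, whose outermost end is at 108416069. The peak over the Sars start was narrower, at 1103 bp (chr3:108444506-108445608).

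At Mars1 the widest finish peak (chr10:127297110-127298434, 1325 bp) lay within the gene, at -2213 to -889 bp from its finish, and a second of 370 bp lay closer to it. The finish of Mars1 overlaps that of Ddit3, which ends 70 bp inside Mars1 and is transcribed toward it. Ddit3 encodes CHOP, a bZIP factor of the integrated stress response and itself a target of ATF4. The start of Ddit3 had a peak of 1621 bp (chr10:127289851-127291471) that also covered the outermost end of Mbd6. It fell within the 10 kb flank of Mars1 and so counts among its 8 peaks.

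The finish peaks of Aars (1439 bp), Qars (1003 bp) and Kars (1089 bp) covered an end of Exosc6, Qrich1 and Adat1, in that order. Exosc6 encodes a subunit of the RNA exosome. Finish peaks of the mitochondrial class were at most 513 bp wide, at Lars2, followed by Tars2 (399 bp), Cars2 (361 bp), Fars2 (291 bp) and Mars2 (149 bp). The median over all genes with a finish peak was 572 bp. It was 1089 bp in the 7 cytosolic and 361 bp in the 5 mitochondrial genes, and 4 of those 7 cytosolic peaks (Aars, Kars, Mars1 and Qars) had an end of another coding gene within 1000 bp and were over 1000 bp wide.

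**Figure D4:**
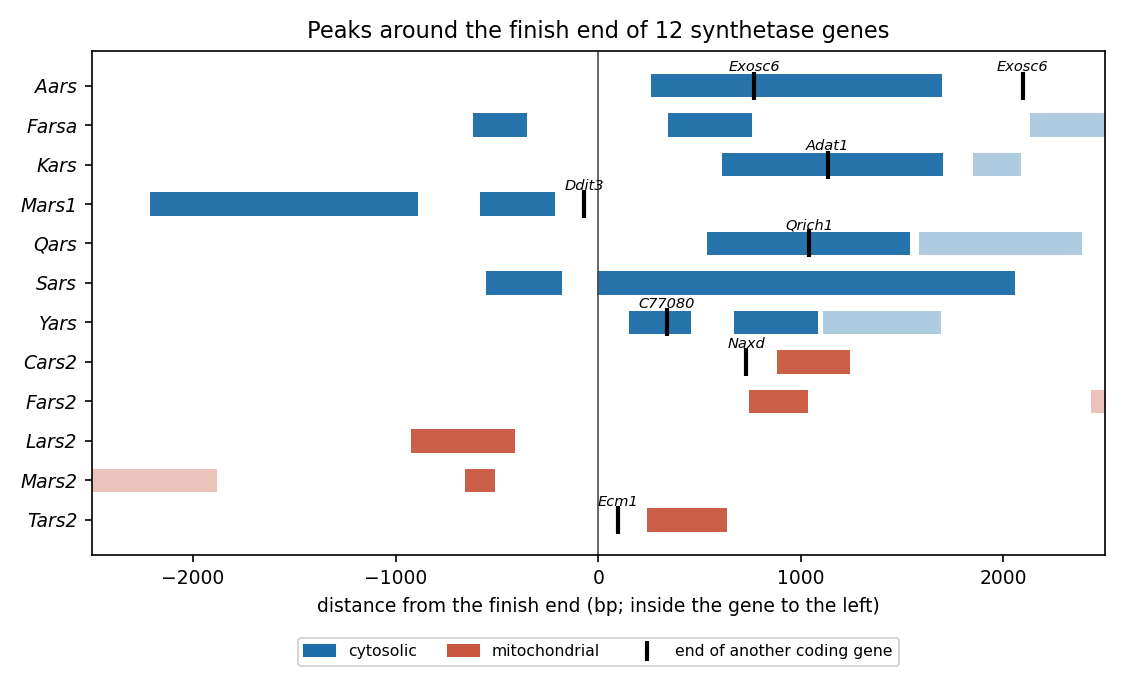
Each row is 1 of the 12 genes with a peak within 1000 bp of the finish, with distance in bp and the inside of the gene to the left. Dark bars are those peaks, pale bars other peaks, and ticks the ends of other coding genes. The 2066 bp peak of Sars has no tick near it, while those of Aars, Kars and Qars each hold one.

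Some start peaks were shared with a neighbouring gene. The peak over the start also covered an outermost end of another coding gene in 6 of 14 mitochondrial genes and in 2 of 13 cytosolic genes, against 10.4% of all genes. That share is 1824 of 17492 genes, of which 10937 had a peak over a listed start. All 27 members had one, so 10.4% is a low base for comparison with them. The mitochondrial genes and their neighbours were Ears2 with Ubfd1, Fars2 with Lyrm4, Iars2 with Bpnt1, Rars2 with Orc3, Sars2 with Mrps12 and Vars2 with Gtf2h4. The cytosolic ones were Kars with Terf2ip and Yars with S100pbp. Mrps12 encodes a mitochondrial ribosomal protein, and Lyrm4 a protein of iron-sulfur cluster assembly in mitochondria.

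For 6 of these 8 the neighbour's own listed start lay upstream on the other strand within 1000 bp, a head-to-head arrangement. These 6 are 2 of the 13 cytosolic and 4 of the 14 mitochondrial genes with a listed start. An opposite-strand start within 1000 bp on either side, upstream or downstream, was present in 9.61% of all genes with a listed start. The 8 were picked for a shared start peak, so 6 of 8 cannot be set beside that share. It also includes genes without a start peak, so it is a low base for the members. The starts were 5 bp apart at Kars and Terf2ip, 15 bp at Rars2 and Orc3, 112 bp at Ears2 and Ubfd1, 147 bp at Sars2 and Mrps12, 286 bp at Fars2 and Lyrm4, and 324 bp at Yars and S100pbp. Hars and Hars2, which have no listed start, also lie end to end and share 1 peak of 1453 bp. That peak counts once for each class. A shared peak cannot be assigned to 1 of its genes. Without any peak that lay within 1000 bp of a neighbour, 16 of 20 cytosolic and 9 of 16 mitochondrial genes had an end peak, against 57.5% of all genes.

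Vars, for valine, had a peak covering an end of D17H6S56E-5 on its low side (996 bp) and one covering an end of Vwa7 on its high side (954 bp). Wars, for tryptophan, had a peak of 893 bp that covered an end of Wdr25. Cars, with an end peak of 1317 bp, and Nars, with one of 1493 bp, had none within 1000 bp of another coding gene's end.

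The gene and 10 kb on either side held a median of 7 peaks for cytosolic genes (range 2 to 16) and 5 for mitochondrial genes (1 to 61), against 5 for all genes. In total 300 different peaks were counted. Cytosolic genes with the most were Yars (16), Cars (13), and Sars and Eprs (11 each). Mitochondrial genes with the most were Fars2 (61), Nars2 (16), and Cars2 and Lars2 (14 each). Fars2 is 420 kb long, and 58 of its 61 peaks touched the gene itself. Genes with few were Iars (2 peaks at 52.1 kb), Yars2 and Pars2 (1 each) and Mars2 (2).

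A longer gene can hold more peaks, so each count was set beside the quartiles of all genes of like length. Genes of the length of Fars2 had a median of 41 and an upper quartile of 64, so its 61 peaks were not outside that range. Above the median for their length were 15 of 20 cytosolic and 6 of 16 mitochondrial genes, against 42.8% of all genes, and below it 4 and 7, against 42.6%. Above the upper quartile were 6 cytosolic and 2 mitochondrial genes, against 21.2%, and below the lower quartile 2 of each, against 19.1%. Yars had 16 peaks where the upper quartile was 7, and Sars 11 in the same length class. Many of the Yars peaks lay in the flank beyond its finish, some of them near an end of C77080. With flanks of 2 kb, Yars had 9 peaks and Sars 10. Iars had 2 where the lower quartile was 3, and Farsb 4 where it was 6.

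**Figure D5:**
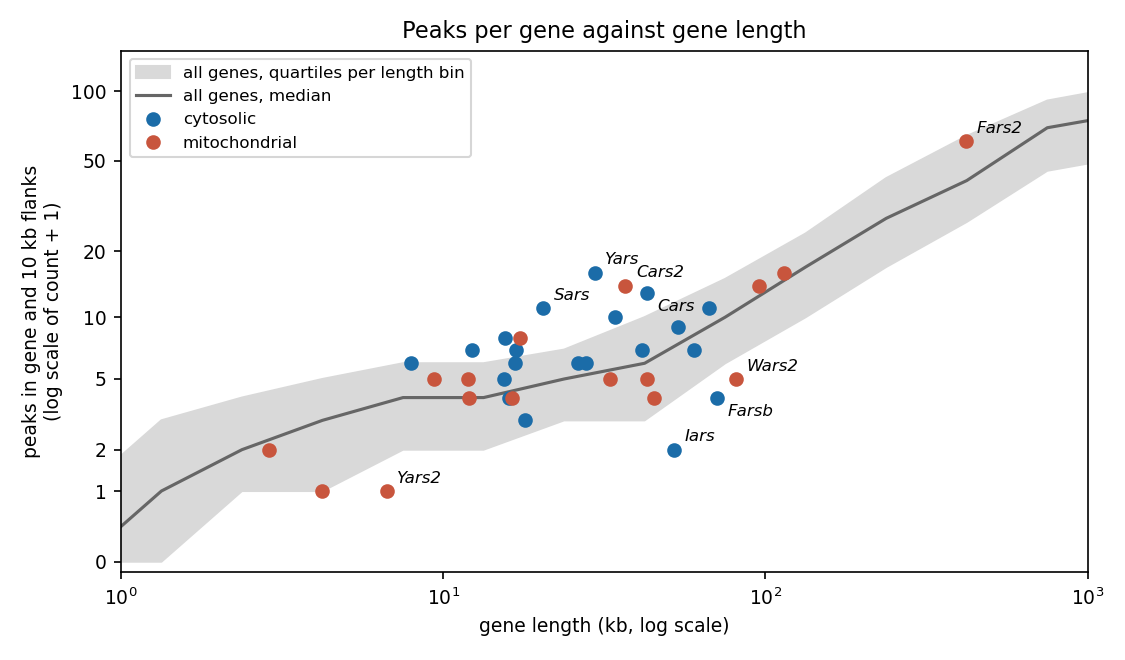
Peaks in the gene and its 10 kb flanks are plotted against gene length in kb, both on log scales (count plus 1). Points are the 36 genes, and the line and band are the median and quartiles of all protein-coding genes in bins of length. Fars2 (61 peaks) lies inside the band, Yars (16) above it and Iars (2) below it.

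Enzymes for the same amino acid in the 2 compartments were set side by side. In 17 cytosolic and mitochondrial pairs, some of which share a gene, the cytosolic gene had more peaks in 9, fewer in 7 and as many in 1. Among pairs with more cytosolic peaks the largest gap was for tyrosine, with 16 peaks for Yars and 1 for Yars2, whose start peaks were 1631 and 1445 bp wide. For alanine the start peaks were 1070 bp (Aars) and 904 bp (Aars2), for isoleucine 1129 and 920 bp, for serine 1103 and 932 bp, and for threonine 867 and 847 bp. For methionine the mitochondrial peak was the wider, with 1135 bp at Mars1 and 1273 bp at Mars2, as it was for phenylalanine with both Farsa and Farsb. Of the 9 pairs in which both starts are listed, the cytosolic peak was wider in 6.

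Other genes of transfer RNA charging were read as a list of 19. All 19 had an end peak, against 70.4% of all genes, with a median widest peak of 1033 bp, against 1133 bp. All 16 with a listed start had a peak over it, against 62.5%. They are the complex scaffolds Aimp1, Aimp2 and Eef1e1, and Gatb, Gatc and Qrsl1 of the mitochondrial amidotransferase. The rest are Mtfmt, Pstk, Sepsecs, Dtd1, Dtd2, Aarsd1, Prorsd1, Ptrh2, Ptrhd1, Ppa1, Ppa2, Eif2ak4 (GCN2) and Gcn1. Eif2ak4 and Gcn1 act in the response to uncharged transfer RNA. None of the 16 windows held the composite core, which at a share of 4.13% over all windows is near the background. An opposite-strand start within 1000 bp on either side was present in 5 of the 16 (Aimp1, Aimp2, Gatc, Qrsl1 and Ptrh2), against 9.61%. At Aimp1 that start, of Tbck, lay downstream of its own.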

How the data were processed

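The authors deposited 1 list of consensus peaks on mm10 with a score per peak. Its peak names carry MSPC, a program that combines replicate calls, and MACS2, deepTools and MultiQC stand in the submitters' processing notes. No aligner, filter or threshold is named in the sources used here. The authors' score is 1000 for all but 1.53% of peaks, and no peak was ranked by it.

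Gene positions are those of RefSeq on GRCm38.p6 (mm10). All 36 members matched by symbol, and 348 genes on scaffolds were left out. A gene had an end peak if any base of a peak lay within 1000 bp of an outermost end. Listed starts came from the promoter table, where 27 members have an entry.

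The planned test of counts between the knockdown groups (edgeR) was not run, for lack of values by sample. Nothing was tested. Members and lists were chosen with earlier results of these data known, while the finish-end, shared-peak, G and C and length comparisons were added after the peaks were seen. Named are members without an end peak, the widest and narrowest of each class, those with most peaks, those that share a peak, pairs and those with the composite core. Others are named as well, so that every member is covered. A further gene of transfer RNA charging is not reported here. Peak overlaps and motif matching were checked on simulated data. Python 3.11.15, numpy 2.4.6, pandas 2.3.3 and matplotlib 3.10.9 were used.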

Additional observations from a re-analysis of the deposited data

How the results depend on the processing

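No paired analysis was possible because the list holds no values per sample, and no replicate could be left out. Depth is unknown, so a missing peak may be a limit of detection. Of 56 values of 11 results under alternative settings, 40 were within 1.5 times the reported value. The end-peak medians of 1317 and 1120 bp differ by less than that, so this count cannot show whether their gap holds. Some values, such as peaks per 100 kb, are in another unit than the reported one. Without peaks near a neighbouring gene's end, 9 of 16 mitochondrial genes had an end peak, against 57.5% of all genes. The mitochondrial count thus lay near the share of any genes. The median number of peaks per cytosolic and mitochondrial gene was 4.5 and 3 with flanks of 2 kb, 17 and 15.5 with 50 kb, and 3.5 and 2.5 with peaks of at least 500 bp. Away from a gene's own ends the medians were 4.5 and 4, against 3 over all genes, and per 100 kb they were 13.6 and 11.5. The composite core stood in 3 cytosolic windows when only upstream bases were read. Finish peaks were found in 5 of 13 cytosolic and 2 of 14 mitochondrial genes with a window of 500 bp (16.7% of all genes), 10 and 10 with 2500 bp (43.5%), 5 and 1 with peaks of at least 500 bp (14.6%), and 2 and 3 without peaks near a neighbouring gene's end (17.4%). The finish and upstream settings were added after seeing the data. A search of whole peaks for the motif was not run, since no genome sequence was used.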

Other observations

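Away from the synthetase genes' own starts and ends, 232 peaks lay in the 36 genes or their flanks, with a median width of 402.5 bp against 906.5 bp for the 68 at a start or end. The widest of them, of 1639 bp (chr7:143548175-143549813), lay in the flank of Cars near Nap1l4. Inside genes, Fars2 had one of 1349 bp (chr13:36282702-36284050), Lars2 one of 1271 bp (chr9:123384573-123385843) and Nars2 one of 1175 bp (chr7:97004534-97005708). A peak of 1271 bp (chr6:55081786-55083056) lay beyond the finish of Gars, with no end of another coding gene within 1000 bp of it. These peaks were picked after their widths were seen.

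The authors' score was below 1000 for 6 of the 300 peaks (2.00%), against 1.53% of all peaks. None of the 6 was at a start or an end of its own synthetase gene, while the one near Wars covered the listed start of Slc25a47 and the one near Aars2 lay within 1000 bp of an end of Tcte1. They lay in or near Aars, Wars, Aars2, Iars2, Lars2 and Rars2, 1 each, with scores from 219 to 303.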
